A study of Mus musculus with 28 samples.

Results

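Levels of 6 Sox transcription factor genes were followed in O9-1 cells, a mouse cranial neural crest line, across 3 differentiation regimes and 2 oxygen levels. The genes were taken by name: the SoxE genes Sox9 and Sox8, the SoxD genes Sox5 and Sox6, and the SoxC genes Sox4 and Sox11. All 6 were found among the 54429 gene identifiers of the deposited count table. RNA sequencing covered 28 libraries in 8 groups, with 4 libraries in each group at 21% oxygen (normoxic) and 3 in each group at 0.5% oxygen (hypoxic). Proliferating cells were kept in medium with 15% fetal calf serum, 25 ng/ml bFGF and 5 ng/ml LIF. For chondrocyte cultures, 3 days of osteogenic medium came first and 7 days as micromasses followed, with 10 ng/ml TGF-beta3, 50 ng/ml BMP-2, 0.1 µM dexamethasone and 5% serum. Osteoblast cultures spent 10 days in osteogenic medium with 100 ng/ml BMP-2, 0.1 µM dexamethasone and 10% serum, and smooth muscle cultures spent 3 days in medium with 10% serum. Every library comes from 1 cell line, and the labels do not say whether replicates were separate cultures, so p-values measure the spread between these libraries, which may be technical. In these bulk samples, fewer cells of a type and less RNA per cell cannot be told apart.

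Sox proteins bind DNA through an HMG box, a domain that fits into the minor groove and bends the helix. Sox9 is the master regulator of cartilage: it is needed for mesenchymal condensation and directly activates genes of the cartilage matrix such as Col2a1 and Acan. Sox5 and Sox6 have no activation domain of their own and work beside Sox9 on cartilage enhancers, while Sox8 is a close relative of Sox9 that can share its targets. Sox4 and Sox11 are expressed in many embryonic progenitors, where they act in survival and in mesenchymal and skeletal growth, and Sox11 is also a factor of neuronal differentiation.

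The start of the HMG box shows how the 6 genes fall into 3 pairs by sequence, since reads from near-identical stretches could be assigned to either of 2 genes. The first 60 bases of each box are given 5′ to 3′ from GENCODE M21 coding transcripts, with the 30 bases that all 6 share in capitals.
Sox9: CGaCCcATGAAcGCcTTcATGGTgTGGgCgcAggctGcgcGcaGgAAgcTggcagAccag
Sox8: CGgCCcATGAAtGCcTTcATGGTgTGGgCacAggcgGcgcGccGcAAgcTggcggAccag
Sox5: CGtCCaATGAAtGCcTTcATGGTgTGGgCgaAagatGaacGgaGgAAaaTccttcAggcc
Sox6: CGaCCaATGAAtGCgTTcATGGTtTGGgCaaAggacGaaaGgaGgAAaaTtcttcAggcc
Sox4: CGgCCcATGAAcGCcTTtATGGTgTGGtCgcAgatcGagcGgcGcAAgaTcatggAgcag
Sox11: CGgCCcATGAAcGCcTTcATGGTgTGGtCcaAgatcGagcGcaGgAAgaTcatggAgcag
Over 195 bases of the box, Sox4 and Sox11 were 90.26% identical, Sox9 and Sox8 were 86.15% identical, and Sox5 and Sox6 were 82.05% identical. Identity between subfamilies was 51.28% to 74.36%. The longest run of identical coding bases was 48 for Sox4 and Sox11, 23 for Sox9 and Sox8 and 17 for Sox5 and Sox6. Between subfamilies it was 11 to 24, so Sox4 and Sox11 were the 1 pair whose run lay beyond that range.

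The genes lie on 6 chromosomes of GRCm38 (mm10), the build named in the submitters' processing notes, at the following GENCODE M21 positions. Sox9 lies at chr11:112782224-112787760 on the plus strand. The other 5 lie on the minus strand: Sox8 at chr17:25565892-25570686, Sox5 at chr6:143828425-144781977, Sox6 at chr7:115470872-116038796, Sox4 at chr13:28948919-28953713 and Sox11 at chr12:27334264-27342574. Exons of a lincRNA on the opposite strand, Gm26735, overlap those of Sox4, and its count was between 1.76% and 6.14% (median 2.85%) of the Sox4 count. Antisense genes with exons over Sox8 (2810468N07Rik) and Sox5 (Sox5os1) held 20 and 38 counts over all 28 libraries. Libraries were made with a stranded kit, but the use of strand in counting is not given in the sources used here, so reads of such partners cannot be told apart from those of the Sox genes.

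Library totals ranged from 19869271 to 64693346 counts. All 3 hypoxic smooth muscle libraries stood apart, with 11.6% to 13.3% of counts from mitochondrial ribosomal RNA against 0.0252% to 0.0889% in the other 25. Their summed level of 6 smooth muscle markers was 95.1 to 119 CPM (counts scaled to a common library size), against 3580 to 4044 in normoxic smooth muscle and 191 to 195 in hypoxic proliferating cells, so these markers do not bear out the smooth muscle label. The same markers summed to 3648 to 5176 CPM in normoxic and 2213 to 2494 CPM in hypoxic osteoblast cultures and to 1894 to 2535 CPM in chondrocyte cultures, so they do not set normoxic smooth muscle cultures apart either. The fourth normoxic osteoblast library stood apart as well. Its 7 chondrocyte markers summed to 1349 CPM against 138 to 154 in replicates 1 to 3, and its 6 osteoblast markers to 90.1 against 4.78 to 5.66. Results on single Sox genes in comparisons that hold it are given with and without it. Normoxic proliferating cells summed to 24.4 to 31.6 CPM for the osteoblast markers, most of it Phex at 21.1 to 28.6 CPM. Hypoxic proliferating cells summed to 18.7 to 20.6 CPM and hypoxic osteoblast libraries to 249 to 255. Of the 5 osteoblast markers tested, Sp7, Alpl and Ibsp rose and Phex and Dmp1 fell in normoxic osteoblast cultures, with and without library 4. In replicates 1 to 3 Sp7 was at 0.670 to 1.36, Alpl at 1.39 to 2.52 and Ibsp at 0.384 to 0.475 CPM. Chondrocyte cultures carried Col2a1 (194 to 5879 CPM) and Acan (456 to 2546 CPM), but Matn1 and Cnmd were at or near 0. Their osteoblast markers summed to 1026 to 2511 CPM in normoxia and 696 to 1196 CPM in hypoxia. These sums lay above those of the osteoblast cultures at the same oxygen level. Of 10 neural crest markers, 8 had counts in normoxic proliferating cells, with a sum of 231 to 264 CPM, and Foxd3 and Sox10 were at 0.

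**Figure D1:**
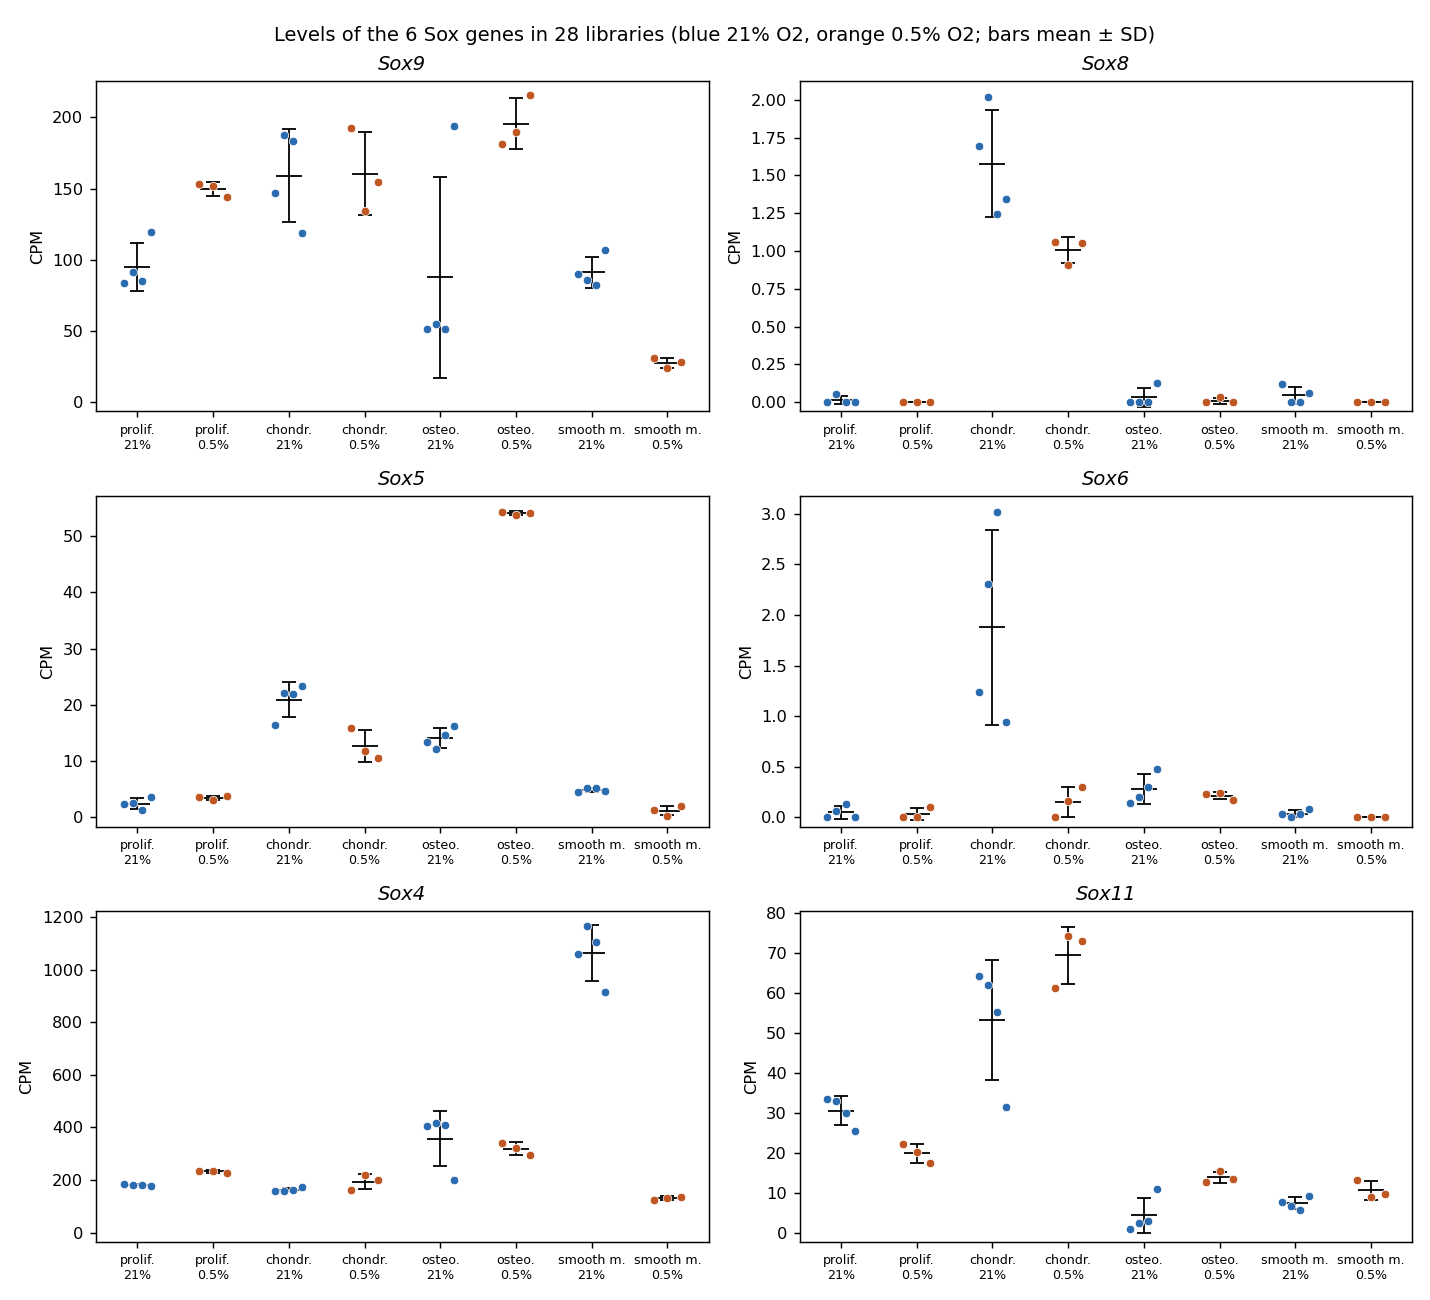
Level of each gene in CPM (y axis, linear) by culture and oxygen level (x axis) in 28 libraries, 1 point per library, with the mean and SD of each group as bars. Sox8 and Sox6 stand above their other groups in chondrocyte cultures (Sox6 in the normoxic ones), Sox5 is highest in hypoxic osteoblast cultures at 53.8 to 54.4 CPM, Sox4 is highest in normoxic smooth muscle cultures, and 1 normoxic osteoblast library lies away from its replicates for Sox9 and Sox4.

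Per kilobase of merged exon, Sox4 and Sox9 were the most abundant of the 6 in every group. In normoxic proliferating cells the mean level was 37.8 CPM per kb for Sox4, 22.9 for Sox9, 3.67 for Sox11 and 0.172 for Sox5, and Sox8 and Sox6 were lower still. In normoxic chondrocyte cultures Sox9 (38.5 CPM per kb) stood slightly above Sox4 (34.0), followed by Sox11 (6.39), Sox5 (1.46), Sox8 (0.506) and Sox6 (0.127). Merged exons of Sox5 and Sox6 span 14.4 and 14.8 kb because every annotated transcript is included, which lowers their values per kb.

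Differences were called at a Benjamini-Hochberg adjusted p under 0.05 in edgeR's quasi-likelihood test over all genes. Most genes passed that threshold in most comparisons, so the count of called Sox genes is read against that share. In chondrocyte against proliferating cultures, 5 of 6 tested were called in normoxia, all higher, beside 74.9% of all genes called and 37.7% called higher. In hypoxia 4 of 5 tested were called (69.5% of all genes), 3 higher (34.9%) and 1 lower (34.6%). Osteoblast against proliferating cultures gave 3 of 4 in normoxia (78.7%), 2 higher (40.9%) and 1 lower (37.8%), and 4 of 4 in hypoxia (71.3%), 3 higher (36.2%) and 1 lower (35.1%). Without normoxic osteoblast library 4, Sox9 was called lower in normoxia as well, beside 82.4% of all genes called and 40.8% called lower. Smooth muscle cultures gave 3 of 4 in normoxia (79.7%), 2 higher (40.8%) and 1 lower (38.9%), and 4 of 4 in hypoxia (70%), 0 higher (33.8%) and 4 lower (36.2%). Between oxygen levels, 3 of 4 were called in proliferating cells (65.4%), 2 higher in hypoxia (33.1%) and 1 lower (32.3%). In chondrocyte cultures 2 of 6 were called (22.2%), 0 higher (10.4%) and 2 lower (11.8%). In osteoblast cultures 1 of 4 was called (54.3%), 1 higher (27%) and 0 lower (27.3%), and 4 of 4 were called without normoxic library 4 (65.6% of all genes). In smooth muscle cultures 4 of 4 were called (75.6%), 1 higher (35.4%) and 3 lower (40.2%). With 4 to 6 genes such counts describe single genes and set the group apart from no other. Sox8 and Sox6 were too low to be tested in most comparisons that do not involve chondrocyte cultures. In normoxic chondrocyte against proliferating cells both entered the test only through the chondrocyte libraries. Between oxygen levels in chondrocyte cultures Sox6, 1 of the 2 called lower, entered only through the normoxic libraries, which largely fixes its direction.

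**Figure D2:**
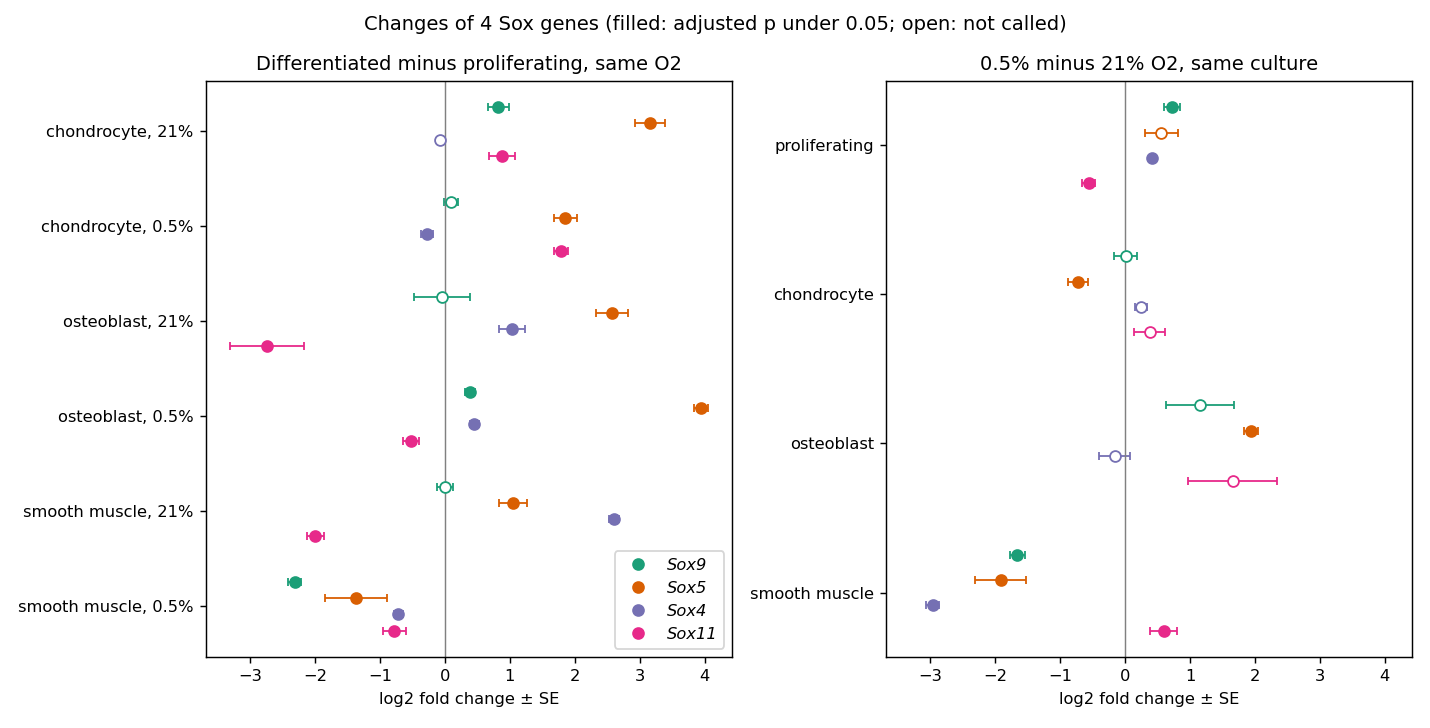
Log2 fold change with its standard error (x axis) for Sox9, Sox5, Sox4 and Sox11 in the 6 comparisons of differentiated with proliferating cells (left) and the 4 comparisons of 0.5% with 21% oxygen (right), with filled points where the adjusted p was under 0.05. Sox5 lies right of 0 in the chondrocyte and osteoblast comparisons at both oxygen levels, and Sox4 lies farthest right in normoxic smooth muscle and farthest left when hypoxic smooth muscle is set against it.

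Sox9 was present in every group before and after differentiation. It stood at 83.4, 91.2, 85.1 and 119 CPM in normoxic proliferating libraries and at 147, 188, 183 and 119 CPM in normoxic chondrocyte libraries. The groups met at 119 CPM, where the lowest chondrocyte library lay just under the highest proliferating one. Sox9 rose by 0.82 on the log2 scale (SE 0.16, adjusted p = 0.0011) in this comparison. In hypoxia the proliferating libraries were already at 153, 152 and 144 CPM, and the chondrocyte libraries at 192, 135 and 155 CPM overlapped them. The hypoxic chondrocyte difference was 0.09 (SE 0.11, adjusted p = 0.48), or 0.21 (adjusted p = 0.048) without hypoxic chondrocyte library 2, and the test of whether it differed from the normoxic one gave -0.65 (SE 0.47, adjusted p = 0.32). With the 4 groups of that lineage fitted alone, the same difference was -0.70 with an adjusted p of 0.033.

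Sox9 was higher at 0.5% than at 21% oxygen in proliferating cells. The hypoxic libraries (144 to 153 CPM) lay above all normoxic ones (83.4 to 119 CPM), with a log2 difference of 0.72 (SE 0.12, adjusted p = 8.9e-04). In the fit of all 28 libraries the difference was 0.66 and its adjusted p was 0.10. In chondrocyte cultures the 2 oxygen levels could not be told apart (0.01, SE 0.18, adjusted p = 0.99).

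In osteoblast cultures Sox9 depended on 1 library. The normoxic libraries held 51.1, 54.7, 51.6 and 194 CPM, and the hypoxic ones 182, 190 and 216 CPM. Replicate 4 of the normoxic group thus lay within the hypoxic range and the other 3 far below it. With all 4 libraries the normoxic change from proliferating cells was -0.05 (SE 0.43, adjusted p = 0.92), and without replicate 4 it was -0.84 (SE 0.13, adjusted p = 3.0e-04). The oxygen difference in osteoblast cultures was 1.15 (SE 0.52, adjusted p = 0.10) with that library and 1.90 (SE 0.07, adjusted p = 2.9e-10) without it. The response differed between oxygen levels by 0.49 (SE 0.47, adjusted p = 0.41) with it and by 1.16 (SE 0.21, adjusted p = 5.7e-05) without it. Against hypoxic proliferating cells, hypoxic osteoblast cultures were higher by 0.38 (SE 0.07, adjusted p = 3.0e-04), which missed the threshold in the fit of all 28 libraries (0.39, adjusted p = 0.36) and under scaling on library totals alone (0.15, adjusted p = 0.073).

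Smooth muscle conditions left Sox9 at 89.8, 85.7, 82.5 and 107 CPM in normoxia, which overlapped proliferating cells (log2 difference -0.00, SE 0.12, adjusted p = 0.99). The hypoxic smooth muscle libraries, at 30.8, 23.7 and 28.1 CPM, were the lowest of all 28 and overlapped no other group. Sox9 was lower there by -2.32 (SE 0.10, adjusted p = 4.3e-09) than in hypoxic proliferating cells and by -1.66 (SE 0.12, adjusted p = 6.3e-09) than in normoxic smooth muscle cultures. The change with differentiation differed between oxygen levels by -2.38 (SE 0.49, adjusted p = 2.0e-04). These are the libraries rich in mitochondrial ribosomal RNA, and the part of that RNA in these differences was not tested.

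Ranked by group mean, Sox9 was highest in hypoxic osteoblast cultures (196 CPM), followed by hypoxic chondrocyte (161), normoxic chondrocyte (159) and hypoxic proliferating cultures (149.7). These 4 groups overlapped from neighbour to neighbour. Normoxic proliferating (94.8), smooth muscle (91.2) and osteoblast (87.8) cultures followed, again overlapping, and hypoxic smooth muscle (27.6) stood apart. The chondrocyte level was above that of the other differentiated cultures in normoxia, by 0.86 (SE 0.31, adjusted p = 0.023) over osteoblast and by 0.80 (SE 0.31, adjusted p = 0.030) over smooth muscle cultures. Both calls were fragile. The first was lost without chondrocyte library 2 or 3 or osteoblast library 1, 2 or 3 (adjusted p up to 0.0949) and grew to 1.58 without osteoblast library 4, and the second was lost without chondrocyte library 2 or 3 or smooth muscle library 1, 2 or 3 (adjusted p up to 0.0827). Scaling on library totals alone also ended both (0.66, adjusted p = 0.079, and 0.40, adjusted p = 0.28), and fitting the 2 groups alone ended the first (adjusted p = 0.15). In hypoxia Sox9 did not pass the test between chondrocyte and osteoblast cultures (-0.29, SE 0.35, adjusted p = 0.53), and it was higher in chondrocyte than in smooth muscle cultures by 2.54 (SE 0.39, adjusted p = 4.9e-06). In these 4 contrasts, fitted to all 28 libraries, 6 of 6 Sox genes were called for normoxic chondrocyte against osteoblast cultures (56.3% of all genes), 5 higher (28.3%) and 1 lower (27.9%). Against normoxic smooth muscle cultures 6 of 6 were called (60.1%), 5 higher (31.1%) and 1 lower (29%). Hypoxic chondrocyte against osteoblast cultures gave 4 of 6 (51%), 2 higher (25.2%) and 2 lower (25.8%), and against smooth muscle cultures 5 of 6 (73.5%), 5 higher (39%) and 0 lower (34.5%). Sox8 entered these tests through the chondrocyte libraries and Sox6 through the normoxic ones, which largely fixes their direction in normoxia and that of Sox8 in hypoxia, so nothing is read from their share of these counts.

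Sox8, the second SoxE gene, was nearly silent outside chondrocyte cultures. The normoxic chondrocyte libraries held 55, 50, 35 and 37 counts (1.70, 2.02, 1.24 and 1.35 CPM) and the hypoxic ones 33, 23 and 32 counts (1.06, 0.906 and 1.05 CPM). The remaining 21 libraries held 0 to 4 counts each and lay below every chondrocyte library. In normoxia Sox8 was called higher than in proliferating cells (fitted log2 6.01, SE 0.58, adjusted p = 1.3e-06), where 1 of 4 libraries held all 4 counts of the group. Without that library the group held 0 counts, and chondrocyte cultures were at least 50.2-fold higher when 3 counts are taken as its limit. In hypoxia proliferating cells held 0 counts, and chondrocyte cultures were at least 29.6-fold higher when 3 counts are taken as the limit for that group (adjusted p = 1.7e-05). The gap between oxygen levels in chondrocyte cultures, in which the ranges did not overlap, missed the threshold (-0.65, SE 0.30, adjusted p = 0.15). Against osteoblast and smooth muscle cultures at the same oxygen level Sox8 was called higher in all 4 contrasts, with adjusted p from 4.4e-06 to 2.4e-04. With 0 to 4 counts in each library outside chondrocyte cultures, it entered all these tests through the chondrocyte libraries alone, which fixes its direction. Without normoxic osteoblast library 4 the normoxic osteoblast group held 0 counts of Sox8, and the call was kept (adjusted p = 9.9e-07).

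Sox5, a SoxD gene, ran from a group mean of 1.23 to 54.1 CPM, a ratio of 44.0. It stood at 2.45, 2.50, 1.36 and 3.57 CPM in normoxic proliferating cells and at 16.4, 22.2, 21.9 and 23.4 CPM in normoxic chondrocyte cultures, without overlap. The rise was 3.16 on the log2 scale (SE 0.22, adjusted p = 1.7e-07). Hypoxic proliferating cells held 3.67, 3.05 and 3.77 CPM and hypoxic chondrocyte cultures 15.9, 11.8 and 10.5 CPM, a rise of 1.85 (SE 0.18, adjusted p = 7.2e-07). Every hypoxic chondrocyte library lay below every normoxic one, and the direct difference was -0.72 (SE 0.16, adjusted p = 0.0078). The rise itself was smaller in hypoxia by -1.22 (SE 0.31, adjusted p = 0.0027), the 1 difference in response called among the 6 Sox genes in chondrocyte cultures (beside 34.7% of all genes, 18.9% higher and 15.8% lower).

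Osteoblast cultures showed the opposite order for Sox5. The normoxic libraries held 13.4, 12.2, 14.7 and 16.3 CPM, and the hypoxic ones 54.4, 53.8 and 54.2 CPM, above every library of any other group. The rise from proliferating cells was 2.57 (SE 0.25, adjusted p = 6.6e-06) in normoxia, or 2.46 without library 4, and 3.95 (SE 0.11, adjusted p = 1.1e-13) in hypoxia. Hypoxic exceeded normoxic osteoblast cultures by 1.93 (SE 0.11, adjusted p = 1.4e-06), or 2.01 without normoxic library 4, and the rise differed by 1.43 (SE 0.31, adjusted p = 3.0e-04), or by 1.42 without it. Sox5, Sox11 and Sox4 were the 3 Sox genes whose osteoblast response was called different between oxygen levels, beside 49.9% of all genes (27% higher and 22.9% lower), and Sox9 joined them without normoxic osteoblast library 4.

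In normoxic smooth muscle cultures Sox5 reached 4.50, 5.21, 5.19 and 4.78 CPM, all above the proliferating libraries (log2 difference 1.05, SE 0.22, adjusted p = 4.1e-04). The hypoxic libraries held 1.35, 0.299 and 2.04 CPM, which rest on 18, 3 and 22 counts. Sox5 was lower there than in hypoxic proliferating cells by -1.37 (SE 0.48, adjusted p = 0.024), a call lost without hypoxic proliferating library 1 (adjusted p = 0.067) or 3 (adjusted p = 0.081), and lower than in normoxic smooth muscle cultures by -1.91 (SE 0.39, adjusted p = 4.2e-04). The response differed by -2.48 (SE 0.40, adjusted p = 3.0e-06), and Sox4, Sox9 and Sox5 were the 3 called for this lineage, beside 66.3% of all genes (31.7% higher and 34.6% lower). In proliferating cells the oxygen difference of 0.56 (SE 0.26, adjusted p = 0.073) missed the threshold, with hypoxic values inside or just above the normoxic range, and it passed without normoxic library 4 (0.75, adjusted p = 0.0034).

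Between differentiated cultures, Sox5 was higher in chondrocyte than in osteoblast cultures in normoxia (0.57, SE 0.19, adjusted p = 0.011, or 0.62 without osteoblast library 4) and lower in hypoxia (-2.09, SE 0.22, adjusted p = 5.1e-09). The normoxic call was lost under scaling on library totals alone (0.38, adjusted p = 0.084). It exceeded smooth muscle cultures in both, by 2.09 (SE 0.20, adjusted p = 3.7e-10) and 3.34 (SE 0.31, adjusted p = 1.1e-10).

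Sox6, the partner of Sox5, was lower throughout and showed its highest level in normoxic chondrocyte cultures. Those libraries held 40, 57, 85 and 26 counts (1.23, 2.30, 3.02 and 0.946 CPM), above each of the other 24 libraries. The hypoxic chondrocyte libraries held 0, 4 and 9 counts (0, 0.158 and 0.296 CPM). Sox6 was lower in hypoxic than in normoxic chondrocyte cultures by -3.61 (SE 0.73, adjusted p = 0.0053), with values of -3.0 without hypoxic library 1 and -4.62 without hypoxic library 3. Sox6 entered this test only through the normoxic libraries, which largely fixes its direction. In normoxia it rose from proliferating cells by 5.15 (SE 0.66, adjusted p = 1.7e-05) and exceeded osteoblast cultures by 2.71 (SE 0.67, adjusted p = 0.0012), or 3.08 without osteoblast library 4, and smooth muscle cultures by 5.54 (SE 0.85, adjusted p = 2.4e-06). The last was 6.29 without smooth muscle library 4, which held 3 of the 5 counts of its group.

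In hypoxia Sox6 was left out of the test of chondrocyte against proliferating cells because of its low counts. The 13 counts of hypoxic chondrocyte cultures stood against 3 in proliferating cells, with those 3 in 1 library. The ratio was 4.38 (95% interval 1.20 to 24.0, counting error only). For the 18 counts of hypoxic osteoblast cultures the ratio to the same proliferating cells was 6.32 (95% interval 1.85 to 33.5). Osteoblast cultures held 0.14, 0.197, 0.305 and 0.481 CPM in normoxia and 0.232, 0.241 and 0.176 CPM in hypoxia, which overlap. Smooth muscle cultures held 5 counts in normoxia and 0 in hypoxia, a difference not detectable at this depth. Against hypoxic osteoblast cultures, Sox6 in hypoxic chondrocyte cultures differed by -0.51 (SE 0.92, adjusted p = 0.67), a value that ran from -1.51 without hypoxic chondrocyte library 3 to 0.08 without library 1, and against hypoxic smooth muscle cultures, at 0 counts, the adjusted p was 0.058. The latter was 0.020 without hypoxic chondrocyte library 1 and under scaling on library totals alone.

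Sox4, a SoxC gene, had its highest level outside cartilage conditions. Normoxic proliferating cells held 183, 180, 182 and 179 CPM, normoxic chondrocyte cultures 159, 159, 161 and 172 CPM, and normoxic smooth muscle cultures 1061, 1167, 1106 and 916 CPM. Smooth muscle libraries lay above every other library, while the chondrocyte libraries lay slightly below the proliferating ones. Sox4 rose by 2.60 (SE 0.07, adjusted p = 3.9e-14) in normoxic smooth muscle cultures, and the chondrocyte difference of -0.08 (SE 0.05, adjusted p = 0.16) missed the threshold. Under scaling on library totals alone the latter was -0.43 with an adjusted p of 5.8e-06, where the median of all genes was -0.35.

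Hypoxic smooth muscle cultures held 122, 133 and 135 CPM and lay below hypoxic proliferating cells at 235, 235 and 227 CPM. Sox4 fell by 0.72 there (SE 0.07, adjusted p = 3.5e-06), and it was lower by -2.97 (SE 0.10, adjusted p = 8.1e-13) than in normoxic smooth muscle cultures. The difference in response was -3.39 (SE 0.22, adjusted p = 3.2e-13), the largest in size among the 7 called for the Sox genes. Scaling on library totals alone moved the median of all genes to -1.49 in the smooth muscle oxygen comparison, where Sox4 was at -4.34. These are again the libraries rich in mitochondrial ribosomal RNA.

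In osteoblast cultures Sox4 stood at 404, 417, 409 and 200.2 CPM in normoxia and at 341, 322 and 294 CPM in hypoxia. Replicate 4 was again apart, below the hypoxic range where the other 3 lay above it. Sox4 was higher than in proliferating cells by 1.03 (SE 0.20, adjusted p = 9.8e-04) in normoxia, or 1.19 without replicate 4, and by 0.45 (SE 0.07, adjusted p = 3.0e-05) in hypoxia. The oxygen difference was -0.16 (SE 0.23, adjusted p = 0.58) with replicate 4 and -0.36 (SE 0.06, adjusted p = 2.5e-04) without it. The response differed by -0.52 (SE 0.21, adjusted p = 0.043), or by -0.80 without replicate 4. That call was lost in 5 of the 14 fits that leave out 1 library, with an adjusted p up to 0.108: normoxic osteoblast library 3, any of the 3 hypoxic proliferating libraries, or hypoxic osteoblast library 3. It also missed the threshold with limma-voom (adjusted p = 0.10) and with the 4 groups fitted alone (adjusted p = 0.091).

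In proliferating cells Sox4 was higher at 0.5% oxygen by 0.42 (SE 0.04, adjusted p = 1.5e-06), with no overlap between groups. The hypoxic chondrocyte libraries, at 163, 217 and 199.9 CPM, lay below the hypoxic proliferating ones by -0.27 (SE 0.09, adjusted p = 0.020), a call lost without hypoxic proliferating library 1 (adjusted p = 0.0516) or 2 (adjusted p = 0.0524) and in the fit of all 28 libraries (adjusted p = 0.16). Their difference from normoxic chondrocyte cultures was 0.24 (SE 0.09, adjusted p = 0.079), and it was called without hypoxic chondrocyte library 1 (0.35, adjusted p = 0.0052). Sox4 was lower in chondrocyte than in osteoblast cultures in both normoxia (-1.13, SE 0.14, adjusted p = 1.3e-07, or -1.35 without osteoblast library 4) and hypoxia (-0.72, SE 0.16, adjusted p = 4.9e-04). Against smooth muscle cultures it was lower in normoxia (-2.71, SE 0.15, adjusted p = 1.8e-14) and higher in hypoxia (0.57, SE 0.16, adjusted p = 0.0029).

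Sox11, its SoxC partner, had its highest group means in chondrocyte cultures. It stood at 33.5, 33.03, 30.03 and 25.5 CPM in normoxic proliferating cells and at 64.1, 61.9, 55.1 and 31.3 CPM in normoxic chondrocyte cultures. Replicate 4 of the chondrocyte cultures lay within the proliferating range and the other 3 above it. The rise was 0.87 (SE 0.20, adjusted p = 0.0028), with an adjusted p of 0.052 in the fit of all 28 libraries. In hypoxia Sox11 went from 22.2, 20.1 and 17.5 CPM to 61.1, 74.1 and 72.8 CPM, without overlap, a rise of 1.79 (SE 0.10, adjusted p = 6.9e-09). The hypoxic and normoxic chondrocyte groups overlapped (0.38, SE 0.24, adjusted p = 0.33), and the difference in response of 1.00 (SE 0.54) had an adjusted p of 0.17, which was 0.016 with the 4 groups of the lineage fitted alone and 0.015 with limma-voom.

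Markers of neurons were higher in chondrocyte cultures, where Sox11 was also higher. The summed level of neuron markers was 81.6 to 119 CPM in normoxic and 109 to 134 CPM in hypoxic chondrocyte cultures, against 3.61 to 8.73 and 13.5 to 17.2 CPM in proliferating cells and at most 16.0 CPM elsewhere. In proliferating cells the sum was higher in hypoxia, where Sox11 was lower, with 1 of 3 tested markers called higher. Tubb3 and Stmn2 made up nearly all of it, at medians of 70.1 and 39.2 CPM in normoxic chondrocyte cultures, while Dcx was at 0 in all 28 libraries. The part of such cells in the Sox11 level was not tested.

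Sox11 was lower in osteoblast and smooth muscle than in proliferating cultures. Normoxic osteoblast libraries held 1.01, 2.41, 2.95 and 10.96 CPM, all below proliferating cells, with replicate 4 above its fellows. The fall was by -2.74 (SE 0.57, adjusted p = 0.0015), or by -3.84 without replicate 4. Normoxic smooth muscle libraries held 7.78, 6.77, 5.69 and 9.25 CPM, a difference of -2.0 (SE 0.13, adjusted p = 1.7e-09). Hypoxic osteoblast libraries, at 12.7, 15.3 and 13.5 CPM, lay below hypoxic proliferating cells by -0.53 (SE 0.12, adjusted p = 0.0013), and hypoxic smooth muscle libraries, at 13.3, 8.88 and 9.64 CPM, by -0.78 (SE 0.18, adjusted p = 0.0024). Both hypoxic calls were lost in the fit of all 28 libraries (adjusted p = 0.30 and 0.090).

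The fall in osteoblast cultures differed between oxygen levels by 2.27 (SE 0.58, adjusted p = 0.0025), and by 3.24 (SE 0.37) without normoxic library 4. Hypoxic osteoblast cultures exceeded normoxic ones by 1.66 (SE 0.68, adjusted p = 0.076) with that library and by 2.70 (SE 0.25, adjusted p = 1.0e-06) without it. In proliferating cells Sox11 was lower in hypoxia, by -0.56 (SE 0.10, adjusted p = 2.8e-04), with no overlap, although the fit of all 28 libraries gave an adjusted p of 0.21. In smooth muscle cultures the oxygen difference of 0.59 (SE 0.21, adjusted p = 0.018) depended on the scaling: with library totals alone it was -0.77 (adjusted p = 0.0044), where the median of all genes was -1.49. The call was also lost without normoxic smooth muscle library 2 or 3 or hypoxic library 1 (adjusted p up to 0.126). Sox11 was higher in chondrocyte cultures than in osteoblast cultures (3.59, SE 0.41, adjusted p = 1.4e-07 in normoxia, or 4.62 without library 4, and 2.32, SE 0.43, adjusted p = 1.1e-04 in hypoxia) and than in smooth muscle cultures (2.85, SE 0.39, adjusted p = 1.5e-06, and 2.70, SE 0.46, adjusted p = 2.0e-05).

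The ratio of Sox4 to Sox11 counts, taken within each library, does not depend on the scaling. Its median was 2.75 in chondrocyte cultures at either oxygen level. In normoxia it was 5.78 in proliferating, 156 in osteoblast and 154 in smooth muscle cultures, and in hypoxia 11.7, 21.8 and 14.1. Hypoxic osteoblast libraries (21.0 to 26.9) lay far below normoxic libraries 1 to 3 (139 to 398) and above normoxic library 4 (18.3). Normoxic chondrocyte library 4, at 5.49, fell among the proliferating libraries (5.44 to 7.01).

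**Figure D3:**
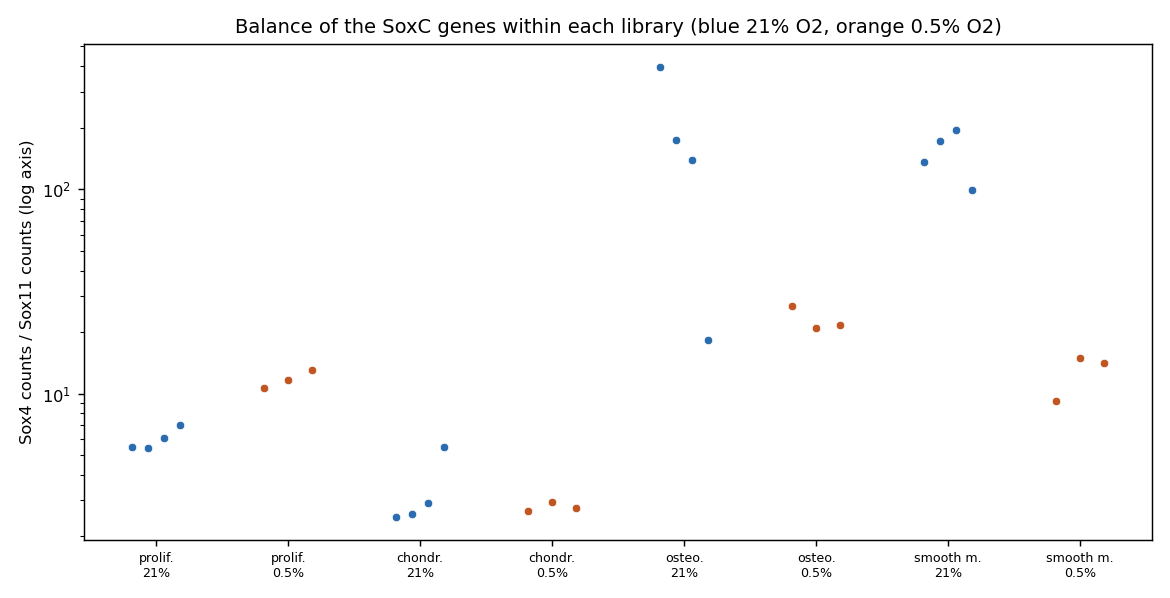
Sox4 counts divided by Sox11 counts (y axis, log scale) in each of 28 libraries, by culture and oxygen level (x axis). Normoxic osteoblast and smooth muscle libraries lie above 99 with 1 exception at 18.3, chondrocyte libraries lie between 2.48 and 5.49, and hypoxic libraries of every culture lie at or below 26.9.

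Cartilage genes, most of them known as Sox9 targets, were examined from a list of 22. Most were at or near 0 in proliferating cells and were tested because of their level in the differentiated cultures, which largely fixes their direction. In normoxic chondrocyte against proliferating cells, 15 of 22 were tested and called higher, beside 37.7% of all genes, and 11 of these passed the filter on low counts only through the chondrocyte libraries. The 4 that passed it in proliferating cells as well were Acan, Col11a1, Papss2 and Wwp2, all called higher. In hypoxia 11 were tested and called higher, beside 34.9%, of which 7 passed the filter in proliferating cells as well. Col2a1, the main collagen of cartilage, went from at most 0.070 to a median of 3566 CPM in normoxia and from at most 0.0975 to 256 CPM in hypoxia. Hapln1, which ties aggrecan to hyaluronan, reached a median of 663 CPM in normoxia and 61.6 CPM in hypoxia.

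Set against each other, hypoxic chondrocyte cultures had 14 of 15 tested targets lower and none higher than normoxic ones (median -3.05, beside -0.01 for all genes and 11.8% of genes called lower). Of the 11 that passed the filter in the hypoxic libraries as well, 10 were lower. Sox9 differed by 0.01 (SE 0.18, not called) in this comparison, while Sox5 was lower. Sox6 was called lower too, but it was tested only because of its level in the normoxic libraries. Col9a1 (-7.85, SE 1.48), Col9a2 (-5.80, SE 1.11), Matn4 (-4.64, SE 0.53) and Comp (-3.81, SE 0.70), all matrix genes, fell the most, and Col9a1 and Matn4 were tested only because of their level in the normoxic libraries. Col11a1, named here after its values were seen, was the 1 not called (-0.26, SE 0.11, adjusted p = 0.12). Without hypoxic chondrocyte library 3, 2091 of all genes were called in this comparison, against 3157 with it.

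The 22 targets summed to 130.1 to 138 CPM in hypoxic proliferating cells, where Sox9 was at 144 to 153 CPM. In osteoblast cultures Col11a1, a fibrillar collagen gene, made up most of the sum in 6 of 7 libraries. The sum was 1891 to 1921 CPM in normoxic libraries 1 to 3, of which Col11a1 made 1627 to 1646, and 1565 to 1613 CPM in hypoxic libraries, of which Col11a1 made 876 to 904. Without Col11a1, a choice made after the values were seen, the other 21 targets summed to 264 to 281 CPM in normoxic libraries 1 to 3, with Sox9 at 51.1 to 54.7 CPM, and to 660 to 737 CPM in hypoxic ones, with Sox9 at 182 to 216 CPM. Normoxic library 4, with Sox9 at 194 CPM, stood at 1793 CPM for these 21. Between oxygen levels in osteoblast cultures, 0 targets rose and 2 fell of 14 tested with that library (median -0.59, beside 27% of all genes higher and 27.3% lower), and 7 rose and 2 fell without it (median 0.58, beside 32.9% of all genes higher and 32.7% lower). In osteoblast against proliferating cells, the same limit applies. Of the 4 targets that passed the filter in normoxic proliferating cells, 3 were called higher in normoxic osteoblast and 3 in normoxic smooth muscle cultures, beside 40.9% and 40.8% of all genes. Of the 6 that passed it in hypoxic proliferating cells, 6 were called higher in hypoxic osteoblast cultures, beside 36.2%. In hypoxic smooth muscle cultures, where Sox9 was lowest, 2 of 6 tested rose and 1 fell (beside 33.8% and 36.2%), and Acan was that 1 (-3.38).

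**Figure D4:**
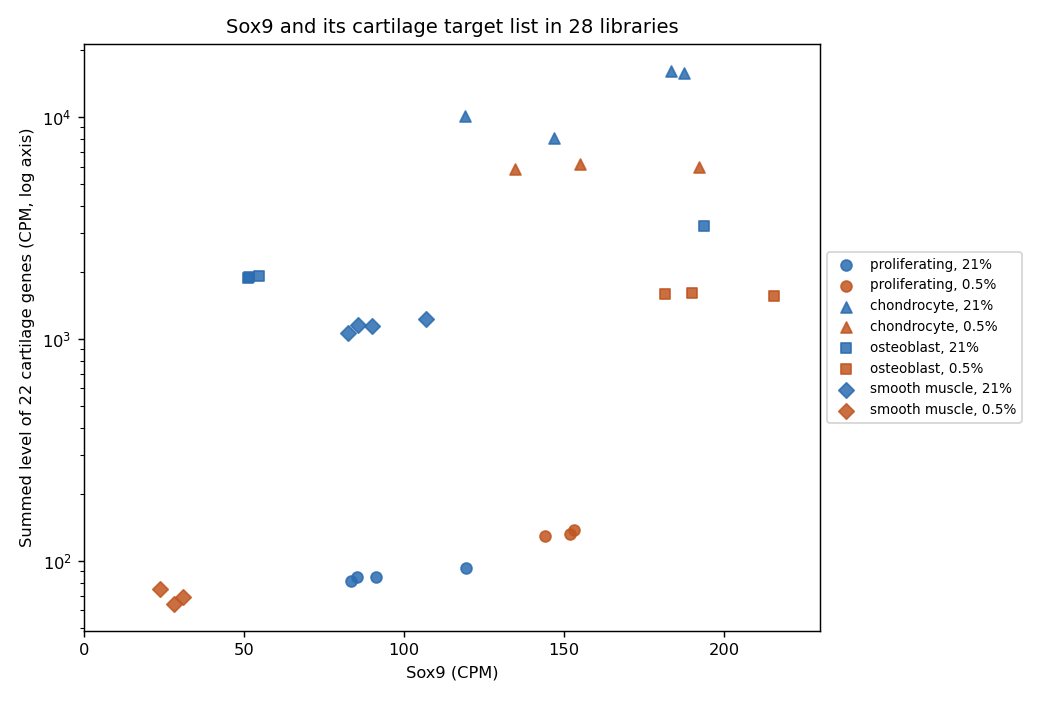
Sox9 level in CPM (x axis, linear) against the summed level of 22 cartilage genes in CPM (y axis, log scale) in 28 libraries, with colour for oxygen level and symbol for culture. Hypoxic proliferating libraries lie low (130.1 to 138 CPM) at a Sox9 level of 144 to 153 CPM, and normoxic chondrocyte libraries lie at or above 8034 CPM at 119 to 188 CPM. Col11a1 makes 1627 to 1646 CPM of the sum in normoxic osteoblast libraries 1 to 3.

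Of 31 other regulators of chondrogenesis (Runx factors, BMP and TGF-beta receptors, Smads and coactivators of Sox9), 17 rose and 8 fell of 28 tested in normoxic chondrocyte cultures (median 0.42, beside 37.7% of all genes higher and 37.2% lower), and 16 rose and 11 fell of 29 in hypoxia (median 0.20, beside 34.9% and 34.6%). Nkx3-2, a repressor that acts with Sox9 in cartilage, was at 0 in proliferating cells and at medians of 1.67 and 1.58 CPM in normoxic and hypoxic chondrocyte cultures. Between oxygen levels in chondrocyte cultures, 3 of 28 fell and 0 rose, beside 11.8% and 10.4% of all genes: Foxc1 (-0.82), Tgfbr2 (-0.69) and Mef2c (-0.54). In osteoblast cultures, where Sox5 was higher in hypoxia, 10 rose and 8 fell of 26 (beside 27% and 27.3%), with Runx3 (1.61) and Runx2 (1.14), regulators of skeletal cells, among those that rose. Without normoxic library 4, 13 rose and 9 fell (beside 32.9% and 32.7%), with Runx3 at 2.04 and Runx2 at 1.09. In smooth muscle cultures, where Sox9, Sox5 and Sox4 were lower in hypoxia, 20 of 27 fell and 3 rose (median -1.07, beside 40.2% and 35.4% of all genes), with Bmpr1b at 0 in all 3 hypoxic libraries and Trps1 at -3.68. These counts rest on the hypoxic smooth muscle libraries rich in mitochondrial ribosomal RNA, whose part in them was not tested.

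Of 13 further Sox genes, 3 were high enough to be tested, and 2 of them, Sox2 and Sox12, fell in chondrocyte cultures at both oxygen levels, beside 37.2% of all genes lower in normoxia and 34.6% in hypoxia. Sox2, a factor of progenitor cells, fell from a median of 61.3 to 10.5 CPM in normoxic chondrocyte cultures (log2 difference -2.47, SE 0.13, adjusted p = 1.4e-08) and from 107 to 19.0 CPM in hypoxic ones (-2.48, SE 0.07, adjusted p = 7.0e-12). Sox12, the third SoxC gene, fell by -1.60 (SE 0.09) and -1.55 (SE 0.09) in the same comparisons. It was lower still in hypoxic osteoblast cultures, at a median of 12.3 against 39.2 CPM in normoxic ones (-1.80, SE 0.15, adjusted p = 1.2e-05, or -1.75 without normoxic library 4). Sox13, the third SoxD gene, did not exceed 2.50 CPM in any library. It was lower in hypoxic osteoblast cultures (at most 0.137 CPM) than in hypoxic proliferating cells (0.585 to 0.719 CPM), by -3.10 (SE 0.68). Sox13 entered that test only through the proliferating libraries, which largely fixes its direction.

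Likeness of pattern was measured as Pearson's r of log2(CPM + 1) over the 28 libraries, which share culture groups and scaling, so the values are descriptions. The 3 genes nearest to Sox9 were Olfml2b (0.911), Zeb2 (0.911) and Rint1 (0.887), which moved to ranks 14, 16 and 19 without the hypoxic smooth muscle libraries. Nearest to Sox8 were C1qtnf3 (0.983), Reln (0.981) and Adamts16 (0.981), and to Sox6 Scin (0.968), the cartilage matrix gene Comp (0.938) and Panx3 (0.926). Sox5 was nearest to Cys1 (0.961), Adcy9 (0.952) and Mmp19 (0.951), Sox4 to Spin1 (0.953), Srpk2 (0.944) and Bmp3 (0.937), and Sox11 to Gja1 (0.942), Impdh1 (0.935) and Klf10 (0.924). Without the hypoxic smooth muscle libraries Adcy9 moved to rank 28 and Mmp19 and Klf10 to 13, and the other 12 genes named for the last 5 Sox genes were at rank 6 or nearer. By Spearman's rho C1qtnf3, Reln and Adamts16 ranked 381, 1110 and 429 for Sox8, Scin and Comp 300 and 299 for Sox6, and Srpk2 and Bmp3 100 and 1412 for Sox4, while the other 11 genes ranked 26 or nearer in a changed order. Among the 6 Sox genes, Sox8 and Sox6 were most alike (0.759) and Sox4 and Sox11 most opposed (-0.579, and -0.705 without the hypoxic smooth muscle libraries).

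Hypoxia-inducible factors bind DNA at a short core, and the 250 bases before RefSeq transcript starts (GRCm38.p6) were searched on both strands for ACGTG and GCGTG. Of 32851 such windows in the mouse, 38.6% hold a match, so a match is common. The Sox8 window held a CACGTG that matches on both strands, the windows of Sox5, Sox4 and Sox11 held 1 match each, and 1 of 6 Sox6 windows held 2. Sox9 was not searched here. The windows of Sox5, the 1 Sox gene called between oxygen levels in osteoblast cultures with all libraries, and of Sox4, which had the largest called difference of the 4 tested in smooth muscle cultures, are given 5′ to 3′ with the match in capitals. Sox5 is shown from chr6:143947107-143947356 and Sox4 from chr13:28953700-28953949, both on the minus strand, and the Sox5 window lies inside the gene as annotated by GENCODE, before an internal start.
Sox5: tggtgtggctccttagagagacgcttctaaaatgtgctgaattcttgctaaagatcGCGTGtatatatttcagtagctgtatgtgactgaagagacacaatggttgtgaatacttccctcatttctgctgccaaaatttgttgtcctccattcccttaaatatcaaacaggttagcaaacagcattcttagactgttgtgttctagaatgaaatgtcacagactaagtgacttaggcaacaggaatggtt
Sox4: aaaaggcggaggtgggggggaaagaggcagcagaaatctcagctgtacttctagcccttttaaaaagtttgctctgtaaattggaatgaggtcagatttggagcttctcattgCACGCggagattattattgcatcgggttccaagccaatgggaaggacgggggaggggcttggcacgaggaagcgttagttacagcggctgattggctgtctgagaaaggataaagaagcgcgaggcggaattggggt
A match is a string of letters and not a binding site.

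The authors' deposited tables give their own log2 fold changes for the 10 pairwise comparisons. For Sox9, Sox5, Sox4 and Sox11 the 40 fitted values differed from those in the authors' deposited tables by a median of 0.02 in size. The difference reached 0.56 for Sox11 between oxygen levels in osteoblast cultures (1.66 fitted, 1.10 in the authors' deposited table), a comparison that contains normoxic osteoblast library 4.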

How the data were processed

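RNA of 28 O9-1 libraries was sequenced with a stranded kit, per the labels' protocols. HISAT2 2.0.5, StringTie 1.3.3b and featureCounts 1.5.0-p3 and the mouse build mm10 are named in the submitters' processing notes, and the annotation release and the use of strand are not given in the sources used here. The authors deposited a table of whole-number read counts per gene (54429 identifiers, of which 54330 have a symbol and 54314 matched a gene name table) and 10 tables of comparisons, whose log2 fold changes are the authors' values per the file headers. A further 70 columns of normalised values of single libraries in those tables were not used.

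Counts were scaled by TMM, and CPM are counts over the scaled library total. Pairwise comparisons were fitted to their 2 groups, and 4 contrasts between lineages and 3 interactions to all 28 libraries, with edgeR 4.0.16 (robust quasi-likelihood test, two-sided, Benjamini-Hochberg adjustment over all genes tested). Genes needed a CPM equal to 10 counts in as many libraries as the smallest group and 15 counts in all. A standard error is the log2 difference divided by the root of F. The script was tested on simulated counts. Library totals were 19869271 to 64693346 counts. Group folds against 0 counts use a limit of 3 counts per group, and 95% intervals cover counting error only. The 6 genes and the lists were chosen with earlier results of these data known. Named genes were the 6, other Sox genes of at least 1 CPM in a group, up to 4 called genes each way per list and comparison, and the 3 most alike per gene. Alternatives were RLE size factors, library totals alone, no filter, at least 10 counts in every library, DESeq2 1.42.0, limma-voom 3.58.1, a replicate block, other libraries in the fit and leaving out each library in turn.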

Additional observations from a re-analysis of the deposited data

Results flagged for a closer look

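Of 24 sets of 4 normoxic libraries examined (6 genes in 4 groups), 4 had 1 library that lay far from the others (Dixon's 95% critical value), where chance gives about 1 in 20. That rate does not apply to the 2 Sox8 sets, in which 3 libraries at 0 fix the outcome. Sox9 reached 193.64 CPM in normoxic osteoblast library 4, and the next library held 54.738 CPM. Sox4 was at 200.21 CPM in the same library, and the next lowest held 403.58 CPM. Sox8 was at 0.12815 CPM in that library (4 counts) and at 0 in its replicates, and at 0.054044 CPM (4 counts) in 1 normoxic proliferating library with 0 in the others.

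Of 18 tests of whether a change from proliferating cells differed between oxygen levels, 7 passed (edgeR, adjusted over all genes), beside 34.7% of all genes for chondrocyte, 49.9% for osteoblast and 66.3% for smooth muscle cultures. The hypoxic minus the normoxic log2 change was -1.22 for Sox5 in chondrocyte cultures. In osteoblast cultures it was 1.43 for Sox5, 2.27 for Sox11 and -0.52 for Sox4. In smooth muscle cultures it was -3.39 for Sox4, -2.48 for Sox5 and -2.38 for Sox9, all of which rest on the 3 hypoxic libraries rich in mitochondrial ribosomal RNA.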

How the results depend on the processing

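Of 87 results on single Sox genes, RLE size factors changed no call, DESeq2 added 1 of 86, and limma-voom lost 1 and added 5. No filter lost 2 and added 2, library totals alone lost 4 and added 2, and the replicate block lost 1 and added 4. Other libraries in the fit lost 10 and added 5 of 81. Leaving out single libraries lost 22 calls and added 9 among 736 results, called or not. In these comparisons 1 called direction reversed: Sox11 between oxygen levels in smooth muscle cultures, at -0.77 with library totals alone, a scaling that moves the median of all genes there from -0.12 to -1.49; the cause was not tested.

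Requiring at least 10 counts in every library removes Sox8 and Sox6 by construction and often Sox5, and left 3 Sox genes called in normoxic chondrocyte against proliferating, osteoblast and smooth muscle cultures and in hypoxic chondrocyte against smooth muscle cultures (beside 76.4%, 66.0%, 68.7% and 82.6% of all genes). It left 2 for hypoxic chondrocyte against osteoblast cultures (62.7%), 1 between oxygen levels in chondrocyte cultures (23.1%) and 0 for the chondrocyte difference in response (47.3%; edgeR, 0 of the 3 tested at an unadjusted p under 0.05). Fits with other libraries called 2 in hypoxic osteoblast against proliferating cells (62.0%), 1 between oxygen levels in proliferating cells (49.0%), 3 between oxygen levels in osteoblast cultures (54.1%) and 3 for the chondrocyte difference in response (43.5%), and limma-voom called 3 in each of the last 2 (54.7% and 36.6%). The cause was not tested.

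Same-numbered libraries were compared by their deviations in log2(CPM + 1) from their group means. These deviations correlated from -0.283 to 0.111 among 14 pairs of groups. In none did every replicate number exceed 0.1, so the numbers were not taken as pairs. With the replicate number as a block, 1 Sox gene was called between oxygen levels in chondrocyte cultures, where Sox5 missed the threshold (-0.68, adjusted p = 0.056), and 4 in osteoblast cultures (19.7% and 63.8% of all genes), where the block sets aside the unpaired normoxic library 4. Leaving out that library also gave 4 (counts of the gene lists without it were added after the data were seen), and over all left-out libraries the count ran from 1 to 4. Between oxygen levels in chondrocyte cultures, 2091 to 3359 genes were called with 1 library left out. Leaving out all 3 hypoxic smooth muscle libraries changed none of the 24 results from the fit of all groups that do not use them.

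Depth limits Sox8 and Sox6, with 0 to 85 counts per library, and hypoxic smooth muscle values of Sox5, with 3 to 22.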
